A study of Apis cerana with 9 samples.

Results

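A set of 7 neurotransmitter receptor genes of the honeybee *Apis cerana* was followed in the proboscis, the sucking mouthpart. They are 3 acetylcholine receptor subunits, subunit 1 of the type B GABA receptor, 1 glutamate-gated chloride channel and 2 kainate-type glutamate receptors. These 7 genes, of 12757 in the deposited table, were chosen by their identifiers in a list drawn up with their levels in these same libraries in view. The acetylcholine and GABA receptor genes (4) were picked as falling and the glutamate receptor genes (3) as rising from bees without pollen to bees with pollen. Their differences from the non-pollen group are therefore a description, and no test of them is given. All 7 passed the filter on low values, 1 FPKM or more in 3 or more libraries, which 9259 genes passed.

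The libraries came from non-pollen-carrying bees (non-pollen, 3 libraries), bees carrying pear pollen (pear, 3 libraries) and bees carrying rapeseed pollen (rapeseed, 3 libraries), with no further treatment, age or genotype in the labels. Whether libraries of a group were separate bees, pools or colonies is not in the labels, so the p-values below cover only the spread among these samples, and that spread may be technical. Total counts ran from 43034759 to 64306245 per library. Gland genes, which include the major royal jelly proteins, took 37.1 to 37.6% of the counts without pollen, 0.901 to 1.21% with pear pollen and 0.794 to 0.837% with rapeseed pollen. A level on a scale of library totals is lowered by such a share for every other gene of the non-pollen group. Levels are therefore given as CPM after TMM scaling (counts scaled by an effective library size, set so that most genes are level between libraries) and as the FPKM deposited by the authors, which has no such correction.

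In insects, acetylcholine is the main fast excitatory transmitter of sensory neurons and of the central nervous system, and it opens pentameric channels built of alpha and beta subunits. GABA is inhibitory and acts through chloride channels and through the type B receptor, a G-protein coupled pair of subunits 1 and 2. Glutamate is the excitatory transmitter at the insect nerve-muscle junction, where kainate-type channels receive it, and it also opens inhibitory glutamate-gated chloride channels that insects have and vertebrates lack. The names below were assigned to the genes by similarity. In a piece of tissue such as the proboscis, fewer cells of a type and less RNA per cell cannot be told apart.

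The acetylcholine receptor subunit alpha-L1 (LOC107992607), a ligand-binding alpha subunit, lies on the minus strand of scaffold NW_016017455.1 from 2964145 to 2968853. Its level was 17.1, 19.5 and 18.8 CPM without pollen, 9.93, 9.12 and 8.0 CPM with pear pollen, and 10.4, 10 and 10.7 CPM with rapeseed pollen. All 6 pollen libraries were below all 3 non-pollen libraries, and pear lay below rapeseed without overlap. The log2 fold change was -1.04 in pear (standard error 0.106) and -0.83 in rapeseed (standard error 0.105), so about 2.05-fold and 1.78-fold lower. On the FPKM scale its mean was 3.75 ± 0.312 in the non-pollen group, 2.68 ± 0.341 in the pear group and 2.99 ± 0.103 in the rapeseed group (each SD, n = 3). Non-pollen again did not overlap with either pollen group, but pear and rapeseed overlapped on this scale.

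The whole of LOC107992607 lies within a second acetylcholine receptor gene on the opposite strand, LOC107992698 (subunit alpha-like 1, 2960786 to 3087381), and the 2 share 4709 bases. Whether reads were counted by strand is not given in the sources used here, so reads of one cannot be told from reads of the other. Within a library the count of LOC107992607 was 1.13 ± 0.0987 times (SD, n = 3) that of LOC107992698 in non-pollen, 0.734 ± 0.103 times in pear and 0.93 ± 0.00815 times in rapeseed.

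The acetylcholine receptor subunit beta-like 2 (LOC107996562), a beta subunit that completes the channel, lies on the plus strand of scaffold NW_016019097.1 from 420140 to 423809. It shares its last 207 bases with a gene on the opposite strand, LOC107996561. Its level was 11.9, 11.1 and 12.6 CPM without pollen, 7.19, 5.56 and 8.39 CPM with pear pollen, and 6.82, 6.93 and 7.15 CPM with rapeseed pollen. The pear libraries were spread more widely than the rapeseed ones, and none of the 6 reached the non-pollen range. Against non-pollen its log2 fold change was -0.75 in pear and -0.76 in rapeseed, each with a standard error of 0.14. On the FPKM scale the means were 3.88 in non-pollen, 3.37 in pear and 3.24 in rapeseed, and the pear and non-pollen libraries overlapped.

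The third acetylcholine receptor gene, neuronal subunit alpha-10-like (LOC108002324, scaffold NW_016019675.1, 775789 to 785646, minus strand), is described as a low quality protein model and had the fewest reads of the 7. Its counts were 64, 145 and 122 without pollen, 63, 81 and 68 with pear pollen, and 48, 103 and 67 with rapeseed pollen. In CPM these were 1.93, 2.83 and 2.5 against 1.19, 1.54 and 1.32 in pear and 0.809, 1.9 and 1.18 in rapeseed. The groups did not overlap in CPM, but rapeseed library 2, at 1.9 CPM, was next to non-pollen library 1, at 1.93 CPM, and in FPKM both pollen groups overlapped non-pollen. Against non-pollen its log2 fold change was -0.85 in pear (standard error 0.297) and -0.91 in rapeseed (standard error 0.296). Without rapeseed library 2 the rapeseed value was -1.29. The gene passed the filter on FPKM in exactly 3 libraries, non-pollen 2 and 3 and rapeseed 2.

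The gamma-aminobutyric acid type B receptor subunit 1 (LOC107997077), the subunit that binds GABA, lies on the minus strand of scaffold NW_016019120.1 from 976690 to 985195 and overlaps no other gene of the table. Its level was 9.03, 9.7 and 9.11 CPM without pollen, 4.05, 6.59 and 4.43 CPM with pear pollen, and 4.57, 5.05 and 5.16 CPM with rapeseed pollen. Pear library 2 stood above the other pollen libraries, and all 6 were below non-pollen. The log2 fold change was -0.89 in pear (standard error 0.171) and -0.91 in rapeseed (standard error 0.17). In FPKM the means were 1.66 in non-pollen, 1.31 in pear and 1.25 in rapeseed, and pear library 2 lay within the non-pollen range.

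Its partner, subunit 2 (LOC107998439), which couples the receptor to its G protein, was not among the 7 genes. It fell by 0.22 on the log2 scale in pear (edgeR adjusted p = 0.00406) and by 0.40 in rapeseed (edgeR adjusted p = 8.36e-06), but on library totals alone the pear value was 0.31 (adjusted p = 0.000307) and the rapeseed value 0.0869 (adjusted p = 0.242). The count of subunit 2 over that of subunit 1 within a library needs no scaling. It was 5.12, 5.26 and 5.83 without pollen, 10.8, 6.75 and 9.23 with pear pollen, and 8.38, 7.41 and 7.38 with rapeseed pollen. Every pollen library had more reads of subunit 2 per read of subunit 1 than any non-pollen library. Subunit 1 was picked as falling in these same libraries, so a higher ratio was favoured by the choice.

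The glutamate-gated chloride channel LOC107995477 (scaffold NW_016018778.1, 123988 to 127261, plus strand), an inhibitory channel, had the highest fold of the 7. The gene, alone of the 7, was not found in the RefSeq gene table used for gene names. Its level was 12.9, 12.6 and 14.6 CPM without pollen, 33.5, 31.2 and 36.6 CPM with pear pollen, and 31.4, 30.4 and 32.4 CPM with rapeseed pollen. Each pollen library was at more than 30 CPM and each non-pollen library below 15 CPM. The log2 fold change was 1.33 in pear (standard error 0.084) and 1.23 in rapeseed (standard error 0.0839), or 2.52-fold and 2.34-fold. In FPKM the mean was 16 ± 1.4 in the non-pollen group, 58.8 ± 4.02 in the pear group and 53.1 ± 1.76 in the rapeseed group (each SD, n = 3).

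A second glutamate-gated chloride channel gene outside the 7, LOC107995609, was also higher, at 48.0 FPKM in non-pollen, 137 in pear and 132 in rapeseed. It rose by a log2 fold change of 0.97 in pear (standard error 0.0395, edgeR adjusted p = 1.02e-14) and 0.95 in rapeseed (standard error 0.0395, edgeR adjusted p = 1.24e-14). A further gene of that description, LOC108001007, named after its values were seen, rose by 0.56 in pear (edgeR adjusted p = 0.00135) and 0.65 in rapeseed (edgeR adjusted p = 0.000261). The count of LOC107995609 over LOC107995477 within a library was 12.7 ± 1.23 (SD, n = 3) in non-pollen, 9.84 ± 0.815 in pear and 10.4 ± 0.35 in rapeseed. How reads that match several genes were counted is not given in the sources used here, so the split of reads between these similar channels is uncertain.

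The kainate-type receptor LOC108002045 (glutamate receptor ionotropic, kainate 2-like; minus strand of scaffold NW_016019663.1, 2759447 to 2807518) is an excitatory cation channel. Its level was 152, 152 and 149 CPM without pollen, 250.0, 251 and 266 CPM with pear pollen, and 264, 270.0 and 260.0 CPM with rapeseed pollen. The pollen libraries lay well above the non-pollen ones with no overlap. Its log2 fold change was 0.76 in pear and 0.81 in rapeseed, each with a standard error of 0.0359. In FPKM the means were 27.4 in non-pollen, 67.9 in pear and 68.1 in rapeseed.

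The other kainate 2-like gene, LOC108002047 (plus strand, 3053359 to 3061170 on the same scaffold), had the highest level of the 7 in every group. It was at 242, 228 and 242 CPM without pollen, 344, 366 and 390.0 CPM with pear pollen, and 355, 367 and 363 CPM with rapeseed pollen. Again no pollen library reached down to the non-pollen range. Its log2 fold change was 0.63 in pear (standard error 0.0414) and 0.61 in rapeseed (standard error 0.0413), and the FPKM means were 58.5, 132 and 126 in non-pollen, pear and rapeseed.

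**Figure D1:**
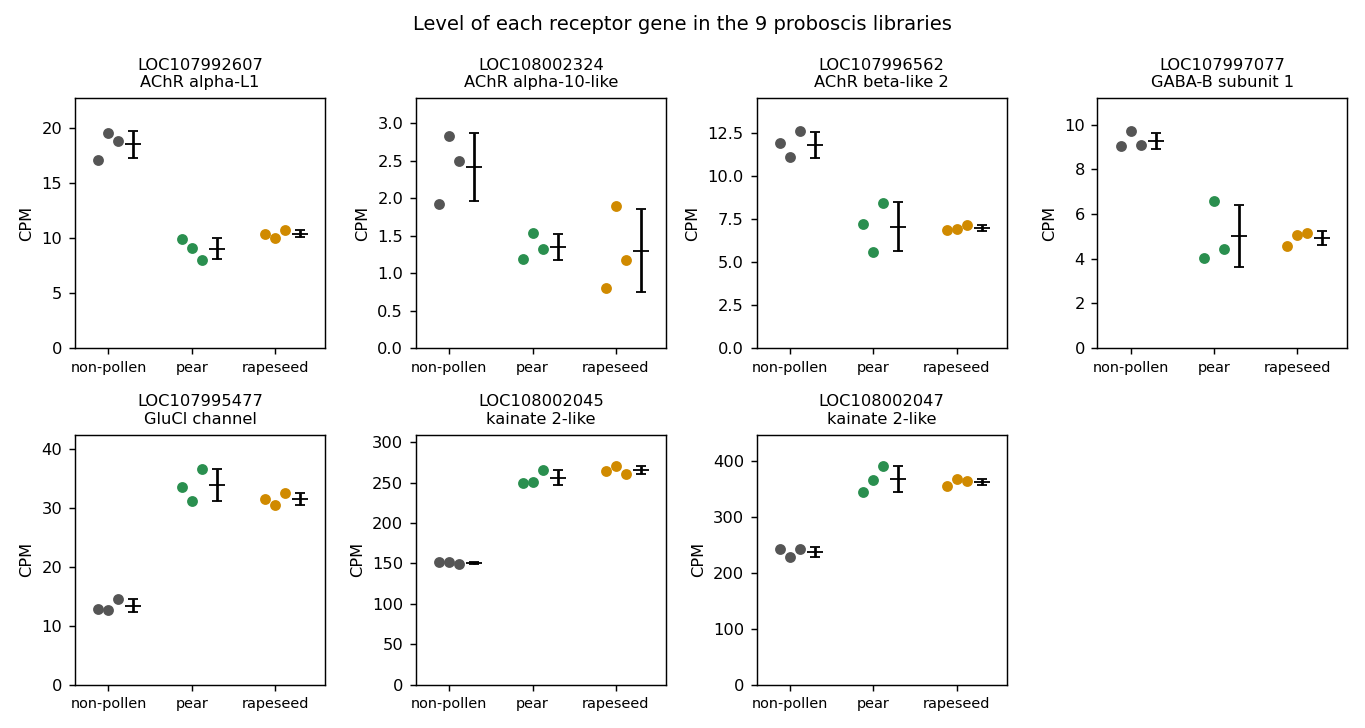
Level of each of the 7 receptor genes (y axis, CPM after TMM scaling, from 0) in the 3 non-pollen, 3 pear and 3 rapeseed libraries, with 1 point per library and the group mean with its SD beside the points. The 4 acetylcholine and GABA receptor genes in the upper row are lower in all 6 pollen libraries, and the 3 glutamate receptor genes in the lower row are higher.

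The 2 kainate genes sit in a run of 4 genes described as kainate 2 receptors on this scaffold, in the order LOC108002045, LOC108002046, LOC108002049 and LOC108002047. LOC108002047 lies wholly within LOC108002049, which is on the opposite strand and was at 17 to 36 counts per library, under the filter. RefSeq's gene table lists LOC108002049 as a long non-coding RNA, unlike its description here. Use of strand in counting is not given, so reads of LOC108002047 and LOC108002049 cannot be told apart where they overlap. LOC108002046 had FPKM means of 0.935 in non-pollen, 1.65 in pear and 1.57 in rapeseed, with log2 fold changes of 0.27 (edgeR adjusted p = 0.0788) and 0.25 (edgeR adjusted p = 0.106). The 2 kainate genes of the set were thus far above LOC108002046 and LOC108002049 on the FPKM scale. Within a library, LOC108002047 had 1.57 ± 0.0621 reads (SD, n = 3) per read of LOC108002045 in non-pollen, 1.43 ± 0.0497 in pear and 1.37 ± 0.0233 in rapeseed.

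Among the 7 genes the log2 fold changes of the falling genes had a median of -0.87 in pear (range -1.04 to -0.75) and -0.87 in rapeseed (range -0.91 to -0.76). Those of the rising genes had a median of 0.76 in pear (range 0.63 to 1.33) and 0.81 in rapeseed (range 0.61 to 1.23). The medians over all 9259 genes tested were -0.005 and -0.02. In the background, 28.5% of genes tested were higher and 27.2% lower in pear against non-pollen, and 29.3% were higher and 30.0% lower in rapeseed against non-pollen at an edgeR adjusted p under 0.05. Since the genes were picked on this difference, nothing is read from their number against these shares. Both comparisons use the same 3 non-pollen libraries.

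**Figure D2:**
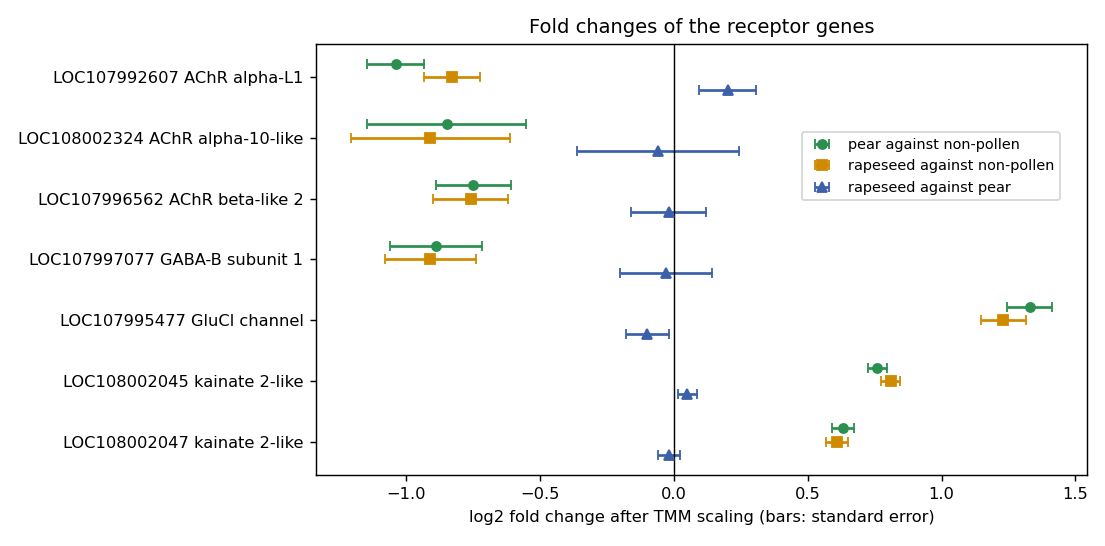
Log2 fold change after TMM scaling (x axis, bars are standard errors) of each of the 7 genes (y axis) in pear against non-pollen, rapeseed against non-pollen and rapeseed against pear. The 4 falling genes lie between -1.04 and -0.75, the 3 rising genes between 0.61 and 1.33, and the values of rapeseed against pear lie between -0.10 and 0.20.

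Scaling moved these values. With library totals alone the median of all genes shifted to 0.53 in pear and 0.471 in rapeseed, the falling genes to medians of -0.33 and -0.38, and the rising genes to 1.30 in both. Set against the median of all genes, the medians were the same under both scalings, at -0.86 and -0.85 for the falling genes in pear and rapeseed and 0.77 and 0.83 for the rising genes. That sameness follows from the method, since a change of scaling shifts all genes of a comparison by about the same amount. Each of the 7 genes kept its direction under every scaling and filter tried, and when any 1 of the 9 libraries was left out. The genes were picked for that direction in these same libraries, so this is no further support for it. Some values were not far above their standard error. On library totals alone in pear, LOC108002324 was at -0.31 (standard error 0.299) and LOC107996562 at -0.22 (standard error 0.14).

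A ratio of counts within a library does not depend on scaling between libraries. The summed counts of the 3 rising genes were 10.2, 9.1 and 9.45 times those of the 4 falling genes without pollen. They were 28.1, 28.4 and 31.3 times with pear pollen, and 28.8, 27.9 and 27.1 times with rapeseed pollen. The mean ratio was 3.06-fold higher in pear and 2.92-fold higher in rapeseed than in non-pollen. The genes were picked as rising or falling in these same libraries, so the direction of such ratios follows from the choice. LOC107995477 alone went from 0.41 ± 0.0279 reads (SD, n = 3) per read of the 3 acetylcholine receptor genes in non-pollen to 1.94 ± 0.12 in pear and 1.69 ± 0.0665 in rapeseed.

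Markers of muscle and of neurons differed between the groups as well. As background to the counts below, 28.5% of all genes tested were higher and 27.2% lower in pear, and 29.3% and 30.0% in rapeseed. Of 26 muscle genes tested, 20 were higher and 4 lower in pear, and 20 were higher and 5 lower in rapeseed, with a summed level of 55541 to 58439 CPM in non-pollen, 79710 to 85482 in pear and 82123 to 82347 in rapeseed. Of 13 neuron genes tested, 9 were lower and 3 higher in each pollen group, while their summed level was 806 to 834 CPM in non-pollen, 776 to 813 in pear and 777 to 787 in rapeseed. As a share of all counts, without TMM scaling, the neuron list was instead higher with pollen, at 0.0643 to 0.0653% in non-pollen, 0.0903 to 0.0907% in pear and 0.0861 to 0.0871% in rapeseed. No marker of either list was at 0 in all 9 libraries, and the neuron list holds widely expressed vesicle genes such as synaptobrevin. Summed photoreceptor genes, 16 in number, were at 1240 to 1289 CPM in non-pollen and at 282 to 308 CPM in the pollen groups. Of 13 photoreceptor genes tested, 3 were higher and 9 lower in pear, and 2 were higher and 9 lower in rapeseed. Summed cuticle genes, 23 in number, were higher with pollen, at 518 to 562 CPM in non-pollen, 871 to 950 in pear and 893 to 919 in rapeseed. Of 9 cuticle genes tested, 4 were higher and 2 lower in pear, and 4 were higher and 1 lower in rapeseed.

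Counts were then set against the muscle and neuron lists within each library, and not against the cuticle list. The rising genes were at 6.96, 7.06 and 7.12 counts per 1000 muscle counts without pollen. They were at 7.87, 7.92 and 8.11 with pear pollen and at 7.92, 8.12 and 7.96 with rapeseed pollen, so 1.13-fold and 1.14-fold higher on average. By gene, the fold per muscle count was 1.74 in pear and 1.63 in rapeseed for the chloride channel LOC107995477, 1.17 and 1.22 for LOC108002045, and 1.07 and 1.06 for LOC108002047. Per 1000 neuron counts the rising genes went from 489 to 826 in pear and 842 in rapeseed, 1.69-fold and 1.72-fold higher. Per muscle count, then, the chloride channel differed more between the groups than either kainate gene. The falling genes went from 51.1 ± 2.88 counts (SD, n = 3) per 1000 neuron counts in non-pollen to 28.3 ± 0.891 in pear and 30.2 ± 0.955 in rapeseed, a fold of 0.552 and 0.59, and per muscle count the fold was 0.37 and 0.389. The neuron ratio uses the summed list, whereas the median neuron gene was itself lower, at -0.538 and -0.601 on the log2 scale. What part the makeup of the tissue has in these differences was not tested, and these ratios were chosen after the levels had been seen.

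**Figure D3:**
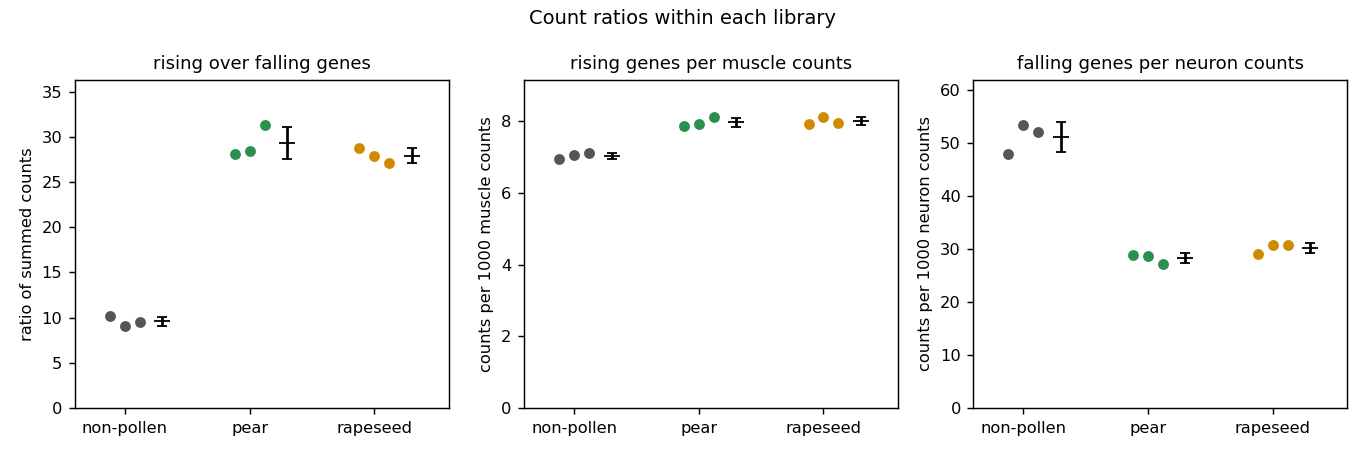
Ratios of summed counts within each library, for the rising over the falling genes (left), the rising genes per 1000 counts of 28 muscle genes (middle) and the falling genes per 1000 counts of 14 neuron genes (right), with 1 point per library and the group mean with its SD. The left ratio goes from 9.57 in non-pollen to 29.3 in pear and 27.9 in rapeseed, the middle one from 7.04 to 7.97 and 8.0, and the right one from 51.1 to 28.3 and 30.2. The direction of the left ratio follows from how the genes were picked.

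The 7 genes were named for a fall or rise against non-pollen, and were also tested between the 2 pollens. Levels in every group were known at the choice, however, and genes moving alike in both pollen groups were picked. A lack of calls is thus favoured, and the test is not independent of the choice. Of the 7, 0 passed in edgeR's quasi-likelihood test, where 7.94% of all genes tested were higher and 4.96% lower in rapeseed than in pear, and 0 passed with DESeq2. The subunit alpha-L1, LOC107992607, had the largest difference, 0.20 on the log2 scale (standard error 0.107, edgeR adjusted p = 0.254, unadjusted p = 0.0735). The chloride channel LOC107995477 was at -0.10 (standard error 0.0796, edgeR adjusted p = 0.465), LOC108002045 at 0.05 (standard error 0.0352, edgeR adjusted p = 0.444) and LOC108002047 at -0.02 (standard error 0.0409, edgeR adjusted p = 0.824). The remaining 3 genes had differences of -0.06 to -0.02 with standard errors of 0.141 to 0.302 and edgeR adjusted p of 0.942 to 0.973. In both edgeR and DESeq2, 0 of the 7 had an unadjusted p under 0.05. The precision differed by gene, and at the depth of LOC108002324 a difference of the size of its standard error, 0.302, was not detectable.

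The order of the 7 genes by FPKM was the same in each group, namely LOC108002047, LOC108002045, LOC107995477, LOC107996562, LOC107992607, LOC107997077 and LOC108002324. Only LOC107996562 and LOC107992607 overlapped as neighbours in that order, in non-pollen and in pear. The summed FPKM of all 15 acetylcholine receptor genes listed was 20.4 ± 0.578 (SD, n = 3) in non-pollen, 20.4 ± 1.01 in pear and 20.6 ± 0.724 in rapeseed. The 3 acetylcholine receptor genes described above made up 42.2% of it in non-pollen, 33.6% in pear and 33.9% in rapeseed. For the 32 glutamate receptor genes listed, the sum was 213 FPKM in non-pollen, 486 in pear and 476 in rapeseed, and the 3 rising genes were 47.8%, 53.2% and 52.0% of it. These sums are on the FPKM scale, which has no correction for the gland share. On log2 of FPKM plus 0.1 the median of all genes tested was itself 0.537 higher in pear and 0.478 higher in rapeseed. An equal FPKM sum is therefore not an equal level after TMM scaling.

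The table lists 52 further genes described as receptors of these transmitters, of which 28 passed the filter. In pear 9 of the 28 were higher, 9 lower and 10 not past the test, with a median log2 fold change of 0.063. That is 32.1% each way, against 28.5% higher and 27.2% lower of all genes tested. In rapeseed 11 were higher, 8 lower and 9 not past the test, with a median of 0.158. These were 39.3% higher and 28.6% lower, against 29.3% and 30.0% of all genes tested. LOC107993874, called lower, passed the filter through the non-pollen libraries alone, and LOC108000386, called higher, through the pollen libraries alone. With library totals alone the split was 17 higher and 3 lower in pear and 18 higher and 3 lower in rapeseed. Between the 2 pollens, 2 of the 28 were higher in rapeseed and 0 lower in edgeR's test, where 1 was lower at an unadjusted p under 0.05, and DESeq2 called 3 higher and 1 lower. In edgeR's test 7.94% of all genes tested were higher and 4.96% lower.

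By class, of 5 further acetylcholine receptor genes tested none was higher, 3 were lower in pear and 1 was lower in rapeseed after TMM scaling, while on library totals alone and on both FPKM scales 2 were higher and none lower in each pollen group. After TMM scaling 28.5% of all genes tested were higher and 27.2% lower in pear, and 29.3% and 30.0% in rapeseed. LOC107992698, the alpha-like 1 gene that encloses LOC107992607, fell by 0.41 on the log2 scale in pear (edgeR adjusted p = 0.00111) and by 0.55 in rapeseed (edgeR adjusted p = 4.43e-05), but was at 0.13 (adjusted p = 0.224) and -0.0605 (adjusted p = 0.571) on library totals alone. The alpha-like subunit LOC107997818 had 0.11 in pear (edgeR adjusted p = 0.315) and 0.10 in rapeseed (edgeR adjusted p = 0.358), but was called higher on library totals alone, at 0.64 (adjusted p = 2.04e-06) and 0.59 (adjusted p = 6.35e-06). The alpha-7-like subunit LOC107997509 fell by 0.88 in pear (edgeR adjusted p = 0.00935) and had -0.38 in rapeseed (edgeR adjusted p = 0.229), and the pear call was lost on library totals alone (-0.35, adjusted p = 0.246). The alpha3 subunit LOC114577547 was at -0.69 in pear, with an edgeR adjusted p of 0.0495 that reached 0.219 without pear library 3 and was 0.0568 or more without 7 of the other 8 libraries, and on library totals alone it was at -0.15 (adjusted p = 0.649).

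Of 7 further GABA and other anion channel or GABA type B genes, 1 was higher and 2 lower in pear, and 1 was higher and 3 lower in rapeseed. The shares over all genes tested were 28.5% higher and 27.2% lower in pear, and 29.3% and 30.0% in rapeseed. On library totals alone none was lower, and 4 (pear) and 3 (rapeseed) were higher. The most abundant, LOC107997441 (described as glycine receptor subunit alpha-3), fell by 0.41 in pear (edgeR adjusted p = 0.000289) and by 0.46 in rapeseed (edgeR adjusted p = 8.31e-05), but was at 0.13 and 0.0368 on library totals alone. LOC108004323 (glycine receptor subunit alpha-4) rose by 0.27 in pear (edgeR adjusted p = 0.000176) and 0.31 in rapeseed (edgeR adjusted p = 2.6e-05). LOC114577487 (glycine receptor subunit alpha-2) was at -0.21 and -0.24, neither past the test.

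Of 16 further glutamate receptor genes, 8 were higher and 4 lower in pear, and 10 were higher and 4 lower in rapeseed. On library totals alone 11 were higher and 3 lower in pear, and 13 were higher and 3 lower in rapeseed. Beside the second chloride channel LOC107995609, a probable glutamate receptor, LOC108000566, rose by 0.86 in pear (edgeR adjusted p = 2.06e-07) and 1.20 in rapeseed (edgeR adjusted p = 8.54e-10). LOC107994508 (glutamate receptor 1-like) rose by 0.28 in pear (edgeR adjusted p = 0.00627) and 0.22 in rapeseed (edgeR adjusted p = 0.0261). The NMDA receptor subunit LOC114576872, of the class of glutamate channels known for synaptic plasticity, had 0.11 in pear (edgeR adjusted p = 0.355) and 0.25 in rapeseed (edgeR adjusted p = 0.0349), and 0.65 in pear on library totals alone (adjusted p = 1e-05). The rapeseed calls of LOC107994508 and LOC114576872 were each lost without any 1 of 4 libraries, with adjusted p up to 0.152 and 0.104. LOC114576872 is a short gene model, 368 to 699 on the minus strand of scaffold NW_016017920.1. On the same strand nearby, from 1341 to 5328, lies LOC107992915 (NMDA receptor subunit 1-like), with log2 fold changes of -1.98 in pear and -2.18 in rapeseed.

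**Figure D4:**
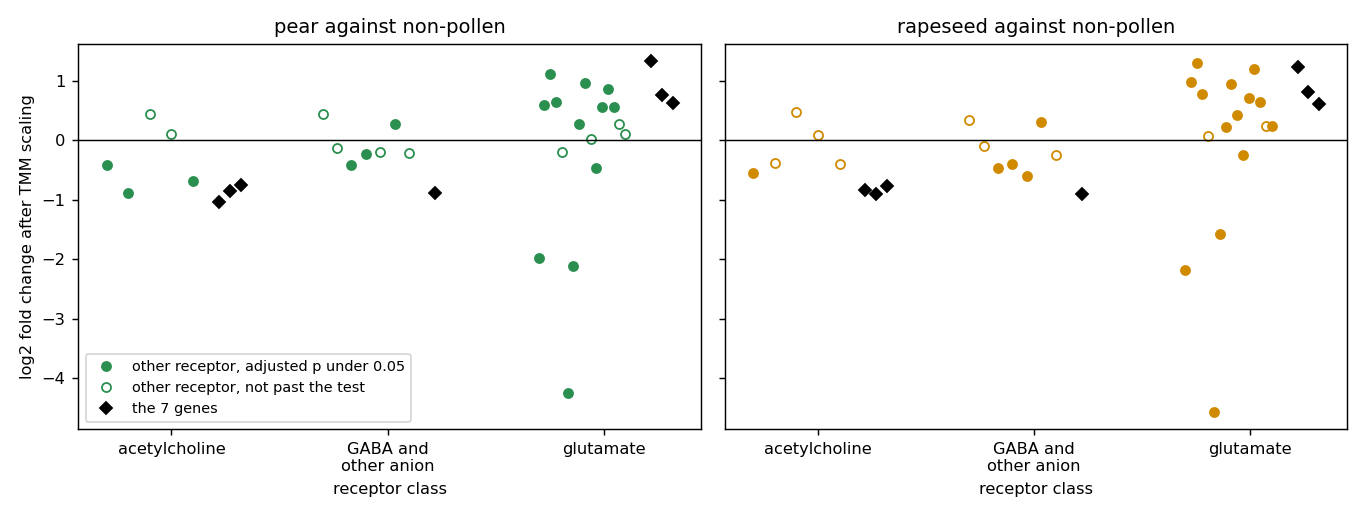
Log2 fold change after TMM scaling (y axis) of 28 further receptor genes by class (x axis), in pear (left) and rapeseed (right) against non-pollen, with filled circles for an adjusted p under 0.05, open circles for others, and black diamonds for the 7 genes. The further glutamate receptors spread on both sides of 0, with 8 higher and 4 lower in pear and 10 and 4 in rapeseed, and no further acetylcholine receptor was called higher on this scale, against 2 on library totals alone.

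Genes that make, pack, remove or anchor with these transmitters and their receptors, 35 by description, were taken as partners, and 27 of them were tested. In pear 11 were higher and 11 lower, and in rapeseed 13 were higher and 13 lower, so 40.7% each way in pear and 48.1% each way in rapeseed, against 28.5% higher and 27.2% lower, and 29.3% higher and 30.0% lower, of all genes tested. The list was drawn up with results known. Of the lower partners, LOC107996223, LOC107993519, LOC108002058 and LOC108003872 passed the filter through the non-pollen libraries alone, which favoured a fall. Nothing is read from these shares. The vesicular acetylcholine transporter LOC107993179, which loads acetylcholine into vesicles, fell by 0.88 in pear (edgeR adjusted p = 5.92e-05) and by 1.22 in rapeseed (edgeR adjusted p = 8.96e-07). In pear its FPKM overlapped non-pollen and the call was lost on log2 of FPKM plus 0.1 (-0.31, adjusted p = 0.0864), and on library totals alone it was at -0.34. Of 2 glutamate decarboxylase genes, which make GABA from glutamate, LOC107996223 fell from 3.1 FPKM in non-pollen to 0.151 in pear and 0.0423 in rapeseed, while LOC108000594 was at 58.6, 81.2 and 95.5 FPKM. The log2 fold change of LOC108000594 was -0.08 in pear (edgeR adjusted p = 0.142) and 0.20 in rapeseed (edgeR adjusted p = 0.00044).

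Of 5 excitatory amino acid transporter genes tested, which clear glutamate, 2 rose and 2 fell in pear, and 2 rose and 3 fell in rapeseed. The most abundant, the transporter LOC107996595 (excitatory amino acid transporter 3) rose by 0.26 in pear (edgeR adjusted p = 7.3e-05) and 0.28 in rapeseed (edgeR adjusted p = 2.2e-05). LOC107995911 (excitatory amino acid transporter 1-like) rose by 0.23 in pear (edgeR adjusted p = 9.63e-05) and 0.41 in rapeseed (edgeR adjusted p = 2.93e-08). The other 3 were named after their values were seen. LOC108002812 fell by 1.15 in pear (edgeR adjusted p = 4.47e-11) and by 1.51 in rapeseed (edgeR adjusted p = 5.28e-13), and LOC108000857 fell by 1.52 (edgeR adjusted p = 2.71e-09) and by 1.93 (edgeR adjusted p = 6.25e-11). LOC108004190 was at -0.37 in pear (edgeR adjusted p = 0.255) and fell by 0.73 in rapeseed (edgeR adjusted p = 0.0283), a call lost on library totals alone (adjusted p = 0.432) and without non-pollen library 1 (adjusted p = 0.0583), non-pollen library 3 (adjusted p = 0.0965) or rapeseed library 1 (adjusted p = 0.152). The anchoring protein LOC108003880 (glutamate receptor-interacting protein 1) rose by 0.68 and 0.43, with edgeR adjusted p of 1.41e-10 and 1.58e-07. Glutamine synthetase LOC107999138, which turns glutamate into glutamine, had -0.03 in pear (edgeR adjusted p = 0.37) and fell by 0.16 in rapeseed (edgeR adjusted p = 0.000225), and was at 0.50 and 0.34 on library totals alone. LOC107998727, a GABA receptor-associated protein of the family that also serves autophagy, rose by 0.14 in both (edgeR adjusted p = 0.00054 and 0.000402).

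The genes whose levels over the 9 libraries were most like the mean of the falling genes, by the root mean square difference of centred log2 CPM among 8675 genes, were LOC107995475 (RUN and FYVE domain-containing protein 2, 0.0783), LOC108001082 (sodium/potassium-transporting ATPase subunit beta-2, 0.0791) and LOC107998512 (a queuine tRNA-ribosyltransferase subunit homolog, 0.0849). The falling genes themselves lay 0.15 to 0.241 from that mean. Those most like the mean of the rising genes were LOC107992440 (purine nucleoside phosphorylase, 0.0326), LOC107996543 (uncharacterized, 0.0354) and LOC107995210 (larval cuticle protein LCP-17-like, 0.0385), against 0.068 to 0.191 for the rising genes.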

How the data were processed

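Poly(A) RNA of the proboscis was read in pairs from strand-marking libraries. Per the file headers, the table deposited by the authors holds, for every gene and library, a whole-number read count and an FPKM value (fragments scaled by gene length and library size). Of the tools in the notes on processing by the submitters, StringTie 2.1.6, HISAT2 2.2.1 and cutadapt 1.9 have versions, edgeR and DESeq2 have none, and no roles are stated. For genome build, use of strand and reads with several matches, the answer is not given in the sources used here. Of the 7 genes, 6 were found in RefSeq's gene table of AcerK_1.0, consulted only for gene names and gene types. The chloride channel LOC107995477 was not found there.

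The deposited counts were fitted with edgeR 4.0.16 (R 4.3.3, TMM scaling, quasi-likelihood test), 3 groups in one fit, for 9259 genes with FPKM of at least 1 in at least 3 libraries. Adjusted p is Benjamini-Hochberg over those genes, with a threshold of 0.05, and the common biological coefficient of variation was 7.92%. The alternatives were DESeq2 1.42.0, limma 3.58.1 on log2 of FPKM plus 0.1 or plus 1, other scalings and filters, a replicate block, and each library left out.

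The 7 genes, the receptor and partner lists (matched on descriptions) and the markers were chosen with earlier results of these data known. Some listed genes are uncertain: LOC107996192 and LOC107996321 are receptors only by a later isoform description, and LOC107995127 (sialin) counts as a vesicular glutamate transporter. Further receptors and partners were named by highest mean FPKM (up to 4 per class, and 6 partners), with genes that make or pack acetylcholine or GABA added; others are said to be chosen after their values were seen. The enclosing and neighbouring genes of the 7 were named for their position.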

Additional observations from a re-analysis of the deposited data

Results flagged for a closer look

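Each gene here was called in edgeR's test of rapeseed against pear and is listed for that reason. None of the 7 receptor genes was called, where 7.94% of all genes tested were higher and 4.96% lower. Genes moving alike in both pollen groups were picked, so a lack of calls among the 7 was favoured by the choice. A gene not called may still differ, and the standard error reached 0.302 for LOC108002324. The probable glutamate receptor LOC108000566 was higher in rapeseed by 0.34 on the log2 scale (edgeR adjusted p = 0.0168), a call lost without pear library 1 (adjusted p = 0.0772) or rapeseed library 2 (adjusted p = 0.079). Glutamate decarboxylase 1, LOC108000594, was higher by 0.28 (edgeR adjusted p = 8.84e-05), and the uptake transporter LOC107995911 by 0.18 (edgeR adjusted p = 0.00424), which did not pass on the FPKM scale (adjusted p = 0.0981 and 0.0922). Another uptake transporter, LOC108002812, was at -0.35 (edgeR adjusted p = 0.00377). The anchoring protein LOC108003880 was at -0.25 (edgeR adjusted p = 0.00111). Glutamine synthetase LOC107999138 was at -0.12 (edgeR adjusted p = 0.0111), a call lost without pear library 2 (adjusted p = 0.068), rapeseed library 2 (adjusted p = 0.0603) or rapeseed library 3 (adjusted p = 0.0562).

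At very low levels in both pollen groups, the glutamate decarboxylase LOC107996223 was at -1.74 (edgeR adjusted p = 6.92e-05) and the GABA transporter LOC107993519, chosen after its values were seen, at -1.92 (edgeR adjusted p = 8.63e-05). With limma on log2 of FPKM plus 0.1 or plus 1, LOC107996223 did not pass (adjusted p = 0.0514 and 0.31).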

How the results depend on the processing

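Each of the 7 genes kept the direction it was picked for against non-pollen under all alternatives, and 0 of the 7 were called between the pollens under any. The alternatives refit the libraries used for the choice. On log2 of FPKM plus 1 in pear, LOC108002324 was at -0.14 (standard error 0.134). The medians of the falling genes were -0.33 and -0.38 (pear, rapeseed) on library totals alone, -0.31 and -0.35 on log2 of FPKM plus 0.1, and -0.19 and -0.22 plus 1. Those of the rising genes were 1.30 and 1.30, 1.31 and 1.31, and 1.28 and 1.28. With 1 library left out, the falling medians ran from -1.0 to -0.76 (pear) and -0.91 to -0.79 (rapeseed), and the rising ones from 0.73 to 0.78 and 0.80 to 0.82.

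Further receptors called in pear were 17 higher and 3 lower on library totals alone and 18 and 3 on either FPKM scale, and in rapeseed 18 and 3, and 19 and 3. With no filter 21 were lower in pear and 18 in rapeseed, and with edgeR's filterByExpr 19 and 18, since more genes were tested. Between the pollens, 1 was higher on either FPKM scale, and the count of lower ones was 1 on library totals alone, with DESeq2 and with only the groups compared, and 2 with no filter or filterByExpr. With 1 library left out those counts were 1 to 3 higher and 0 to 1 lower. They were 1 higher without pear library 1 or rapeseed library 2, and 1 lower without non-pollen library 1 or pear library 3. Partners higher in rapeseed than in pear were 3, and 1 on either FPKM scale.

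On library totals alone, log2 of FPKM plus 0.1 and plus 1, in that order, the sign turned for LOC107992698 in pear (0.13, 0.13, 0.11), LOC107997441 in pear (0.13, 0.14, 0.13) and rapeseed (0.0368, 0.0452, 0.0434), LOC107998439 in pear (0.31, 0.32, 0.28) and rapeseed (0.0869, 0.10, 0.0861), LOC107999138 in pear (0.50, 0.51, 0.51) and rapeseed (0.34, 0.35, 0.35), and LOC108000594 in pear (0.46, 0.47, 0.46). For LOC114577487 the FPKM scales gave 0.35 and 0.32 in pear and 0.27 and 0.25 in rapeseed. Another 39 of 1638 refitted values changed sign with neither value called. The cause was not tested.

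Replicate numbers did not pair the samples (correlations of same-numbered libraries from -0.132 to 0.0549). With a replicate block the counts of further receptors were 9 higher and 8 lower in pear and 11 and 8 in rapeseed, and LOC114577547 in pear was not called (adjusted p = 0.0619). Depth limits LOC108002324, with 48 to 145 counts per library.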

Other observations

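Some genes outside the named ones moved further than any of the 7 and were chosen after their values were seen. A pair of genes described as NMDA receptor subunit 1-like, the obligatory subunit of that glutamate channel, went against the rising glutamate receptors. LOC107992915 fell from 6.12 ± 0.22 FPKM (SD, n = 3) in non-pollen to 2.26 ± 0.44 in pear and 1.91 ± 0.222 in rapeseed, or by 1.98 and 2.18 on the log2 scale after TMM scaling (edgeR adjusted p = 1.39e-10 and 2.8e-11). LOC107993874 was at 85, 138 and 143 counts without pollen, 11, 0 and 11 with pear pollen, and 0, 16 and 3 with rapeseed pollen. It passed the filter through the non-pollen libraries alone, which favoured a fall.

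Of the partners, the GABA transporter LOC107993519, which clears GABA, fell from 484, 724 and 768 counts without pollen to 52, 67 and 32 in pear and 17, 9 and 17 in rapeseed. KCTD16 (LOC108002058), known in mammals as an auxiliary subunit of type B GABA receptors, was at 736, 927 and 991 counts without pollen, 132, 153 and 128 counts with pear pollen, and 103, 102 and 171 counts with rapeseed pollen. LOC107993519 and LOC108002058 passed the filter through the non-pollen libraries alone. Disks large 1 (LOC107995510), a scaffold protein of the fly nerve-muscle junction, rose by 0.64 and 0.62 (edgeR adjusted p = 2.18e-11 and 2.84e-11), within the range of the 3 rising receptor genes. The place of these genes in the tissue was not tested.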
